A study of Mus musculus with 6 samples.

Results

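The 10 transcripts described here stand at the junction of several innate signalling routes, and they were measured in cells labelled as microglia after co-culture with Cd177-/- or WT neutrophils. They encode the adaptors MyD88 (Myd88) and TRIF (Ticam1), the IRAK proteins (Irak1, Irak2, Irak3 and Irak4) and the TRAF proteins 1, 2, 3 and 6 (Traf1, Traf2, Traf3 and Traf6). They were chosen by name, as adaptors and kinases that Toll-like and cytokine receptors use, but with earlier results of these data known. All 10 were found among the 55335 gene identifiers of the table. Toll-like receptors and the IL-1 receptor recruit MyD88, which gathers IRAK4, IRAK1 and IRAK2 into a complex that passes the signal to the ubiquitin ligase TRAF6, the kinase TAK1 and finally NF-kB. TLR3 and internalised TLR4 use TRIF instead, which reaches TRAF3 and the kinase TBK1. IRAK3, also called IRAK-M, restrains the MyD88 arm, and TRAF1 and TRAF2 act together below the TNF receptor family.

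The cells were labelled as primary microglia and came from brains of newborn C57BL/6 mice with intact Cd177, shaken off a mixed culture on day 14. The neutrophils came from spinal cord lesions of adult mice on day 3 after spinal cord injury (SCI) and were enriched with magnetic beads, from Cd177-/- mice (KO) or from mice with the gene (WT). After 24 h together, Ly6G-negative cells were sorted and their RNA was sequenced, in 3 libraries per neutrophil genotype. Every library came from cells exposed to injury neutrophils, so each change below is KO relative to WT neutrophils and not relative to cells kept alone. The labels do not say whether the libraries of an arm were separate cultures, and the p-values then measure only the spread between these libraries, which may be technical.

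Levels are in FPKM, that is fragments per kilobase of transcript scaled to the mapped fragments of the library. The libraries held 15700000 to 19500000 fragments by an estimate from the steps of low values, and 11371 to 11406 genes reached 1 FPKM in each. Mitochondrial genes held 11.1% to 11.3% of the FPKM sum with WT and 14.3% to 14.6% with KO neutrophils. Of 15 microglia markers 4 had a mean of at least 1 FPKM, Sall1, Fcrls and C1qa were listed at 0 in every library, and P2ry12 and Aif1 had at most 0.148 and 0.282 FPKM, so that the identity of the cells beyond their label is unsure. All 10 markers shared by macrophages reached that mean. They summed to 2107 to 2185 FPKM with WT and 2408 to 2429 FPKM with KO neutrophils but did not move together. All KO libraries lay above all WT libraries for 5 of them (Lgals3, Cd68, Tyrobp, Spi1 and Ctsb) and below for 2, Adgre1 (99.7 to 104 FPKM in the WT and 37.5 to 40.4 FPKM in the KO libraries) and Fcer1g, and they overlapped for 3. The neutrophil markers summed to 3.99 to 4.48 FPKM with WT and 3.36 to 3.74 FPKM with KO neutrophils, and 7 of 15, among them Ly6g and S100a9, were listed at 0 in every library. The largest part of this sum was Ceacam1 alone, which was higher in the KO libraries (2.47 to 2.65 FPKM) than in the WT libraries (1.86 to 2.21 FPKM). Without it the neutrophil markers summed to 2.03 to 2.30 FPKM in the WT and 0.791 to 1.27 FPKM in the KO libraries. Cd177 itself had at most 0.477 FPKM, so these libraries do not check the genotype of the neutrophils. The markers of astrocytes and oligodendrocytes summed to 2.92 to 3.34 FPKM in the WT and 4.14 to 4.60 FPKM in the KO arm, nearly all of it Cnp (2.60 to 2.94 FPKM and 3.76 to 4.31 FPKM), while Gfap had at most 0.0305 FPKM and Aqp4, Slc1a3 and Aldh1l1 were listed at 0. The markers of lymphocytes and dendritic cells summed to at most 0.160 FPKM. The part of these marker and mitochondrial differences in the results below was not tested. In bulk RNA, fewer cells of a kind and less RNA per cell cannot be told apart.

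Irak3, Traf1 and Irak2 fell by more than 2-fold with KO neutrophils, while the adaptor transcript Myd88, the kinase transcript Irak4 and Traf6 did not pass the test. Traf2 and Ticam1 fell by smaller amounts, and Irak1 and Traf3 rose. In all, 7 of the 10 transcripts had an adjusted p under 0.05 (limma on log2(FPKM + 1), Benjamini-Hochberg over all 11395 genes tested), 5 of them lower and 2 higher. Among all genes tested 43.3% passed, 18.8% lower and 24.5% higher, so a call as such was common in these data. More than 2-fold lower was much rarer, with 2.02% of all genes, and 3 of the 10 transcripts were in that class. KO and WT libraries did not overlap for 9 of the 10 transcripts, against 55.8% of all genes tested. The median absolute log2 change was 0.31 for the 10 transcripts and 0.17 for all genes. Because the 10 were chosen with earlier results of these data known, these contrasts describe them and are no test. With each library rescaled to the same sum (TPM scale) 55% of all calls were lower, against 43.4% on the deposited scale, but the direction and the call of each of the 10 were the same on both. Permuting the libraries exactly (two-sided, difference of means) gave p = 0.1, the smallest that 3 against 3 libraries allow, for every transcript but Irak4.

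**Figure D1:**
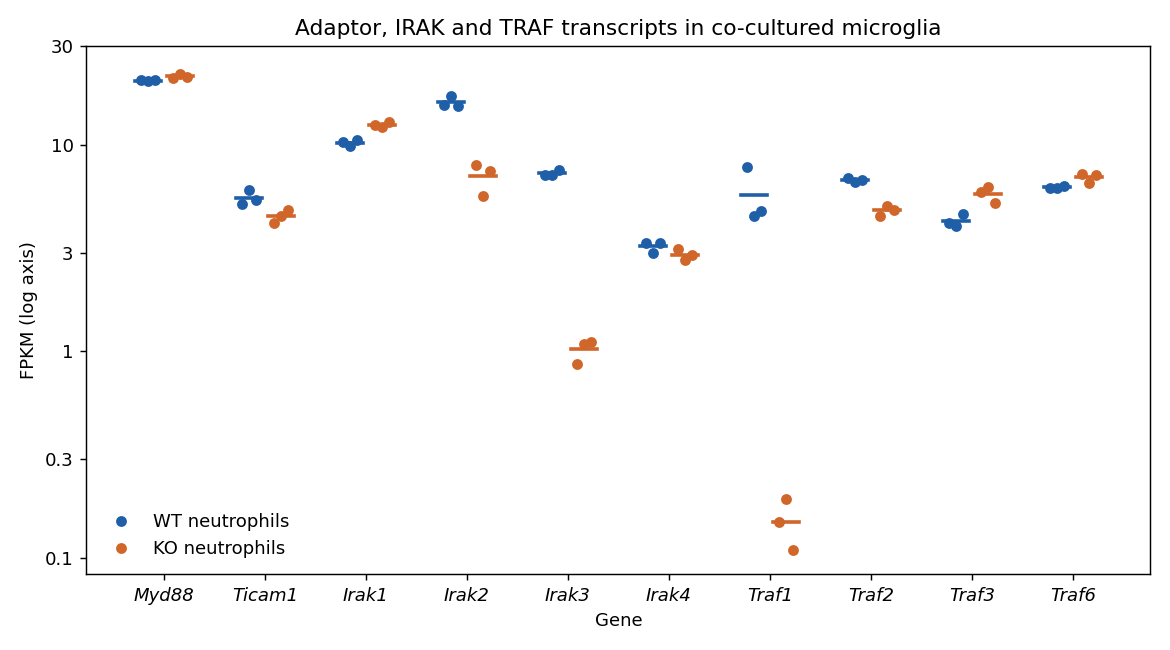
FPKM (log axis) of the 10 transcripts, with 1 point per library, WT neutrophils in blue and KO neutrophils in orange, and bars at the means of the 3 libraries. Irak3 and Traf1 drop from 7.27 and 5.67 FPKM to 1.02 and 0.149 FPKM, while Myd88 stays between 20.2 and 22.0 FPKM.

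The adaptors were examined first. Myd88 (ENSMUSG00000032508, chromosome 9, 119335934 to 119341411, minus strand, GRCm38) was the most abundant of the 10 in both arms. It had 20.5, 20.2 and 20.5 FPKM in the WT libraries and 21.0, 22.0 and 21.2 FPKM in the KO libraries. The KO values lay just above the WT values, but the log2 change was 0.06 (95% interval -0.01 to 0.14) and did not pass (limma adjusted p = 0.130). Its exons share 290 bases with Acaa1a on the other strand (11.3% of its exon bases), and Acaa1a rose from 9.60 to 11.2 FPKM, so with the strand setting not given here a part of this value cannot be assigned.

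Ticam1, the transcript of the TRIF adaptor (ENSMUSG00000047123, chromosome 17, 56269319 to 56276786, minus strand), stood well below Myd88. It had 5.16, 6.00 and 5.38 FPKM in the WT libraries and 4.18, 4.52 and 4.80 FPKM in the KO libraries, and the highest KO library lay under the lowest WT library. The fall was small, -0.24 on the log2 scale (SE 0.07) with an adjusted p of 0.0315 in limma. This call was lost without the filter on low values (adjusted p = 0.0728) and without WT replicate 2 (0.0801), WT replicate 3 (0.0643), KO replicate 1 (0.0867) or KO replicate 2 (0.0745). Within a library, the log2 ratio of Ticam1 to Myd88 was -1.89 ± 0.12 with WT and -2.25 ± 0.10 with KO neutrophils (SD, n = 3 each; exact permutation p = 0.1, adjusted over 5 ratios 0.125).

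Next, the IRAK transcripts were compared. They divided into Irak2 and Irak3, which fell, Irak1, which rose, and Irak4, which did not pass. IRAK4 is the kinase that starts the complex and IRAK1 the kinase it activates, whereas IRAK2 sustains the signal and IRAK3 dampens it. Irak4 (ENSMUSG00000059883, chromosome 15, 94543643 to 94581815, plus strand) had 3.33, 2.98 and 3.33 FPKM in the WT libraries and 3.11, 2.75 and 2.93 FPKM in the KO libraries. Here the arms overlapped, the only such case among the 10, and the log2 change of -0.10 (95% interval -0.25 to 0.05) did not pass (limma adjusted p = 0.255, exact permutation p = 0.2). It shares 395 exon bases with Twf1 on the other strand, which went from 22.8 to 20.6 FPKM.

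Irak1 (ENSMUSG00000031392, chromosome X, 74013914 to 74023918, minus strand) was higher with KO neutrophils. It had 10.3, 9.88 and 10.5 FPKM in the WT libraries and 12.5, 12.1 and 12.8 FPKM in the KO libraries. All 3 KO libraries lay above all WT libraries, with a log2 change of 0.26 (SE 0.04) and an adjusted p of 0.00245 in limma. Its exons overlap the microRNA genes Mir5132 and Mir718 on the same strand.

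Irak2 (ENSMUSG00000060477, chromosome 6, 113638467 to 113695026, plus strand) had the second highest level with WT neutrophils and lost more than any other member in FPKM. It had 15.5, 17.1 and 15.3 FPKM in the WT libraries and 7.99, 5.63 and 7.46 FPKM in the KO libraries. The highest KO library held less than the lowest WT library, and KO replicate 2 was the lowest. The log2 change was -1.09 (SE 0.12) with an adjusted p of 0.000601 in limma. Without KO replicate 2 it was -0.96, which is under 2-fold, with an adjusted p of 0.000358.

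Irak3 (ENSMUSG00000020227, chromosome 10, 120141648 to 120202130, minus strand) had the smallest p of the 10. It had 7.14, 7.14 and 7.52 FPKM in the WT libraries and 0.870, 1.08 and 1.10 FPKM in the KO libraries. The arms were far apart and tight within themselves, and the ratio of means was 7.13. The log2 change was -2.04 (SE 0.07) with an adjusted p of 3.72e-06 in limma, and 0.456% of all genes tested had a change as low or lower. Irak3 shares 192 exon bases (5.22% of its own) with Tmbim4 on the other strand. Tmbim4 went from 12.4 to 7.26 FPKM, a log2 change of -0.70, and reads in the shared stretch cannot be told apart without strand.

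The make-up of the IRAK family differed accordingly. With WT neutrophils Irak2 held 41.8% to 46.1% and Irak3 held 19.3% to 20.5% of the summed IRAK FPKM. With KO neutrophils Irak1 led with 51.0% to 56.1%, and Irak3 held 3.56% to 5.02%. The ratio of Irak2 to Irak1, which compares the later with the earlier kinase of the complex within a library, was 1.51, 1.73 and 1.46 with WT and 0.642, 0.465 and 0.583 with KO neutrophils. The ratio of Irak3 to Irak4 was 2.15, 2.40 and 2.26 with WT and 0.280, 0.394 and 0.376 with KO neutrophils. So Irak2 exceeded Irak1 and Irak3 exceeded Irak4 in each WT library, and in each KO library the order was the opposite. On the log2 scale the ratios differed by -1.48 and -2.71 (exact permutation p = 0.1 each, adjusted over 5 ratios 0.125).

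**Figure D2:**
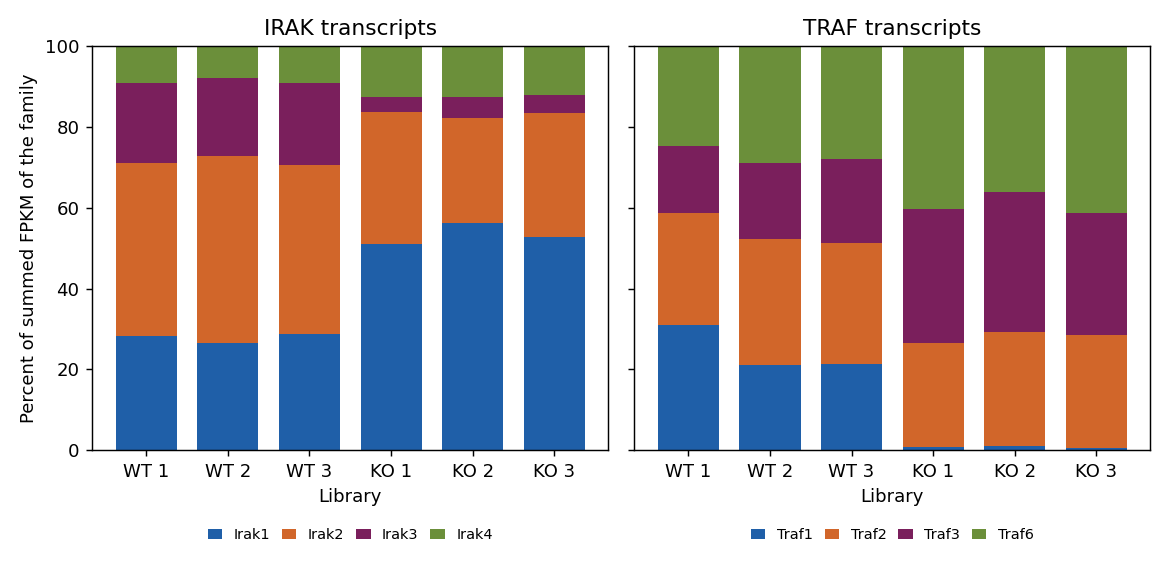
Share of each transcript in the summed FPKM of the 4 IRAK transcripts (left) and the 4 TRAF transcripts (right), with 1 stacked bar per library. Irak3 goes from at least 19.3% to at most 5.02% and Traf1 from at least 21.1% to 0.629% to 1.07% as deposited. These KO values of Traf1 lie under its floor of 3 fragments for the shortest coding transcript, at which its share would be at most 2.78%.

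To show the DNA in front of these genes, the windows from 250 bases before to 50 bases after the RefSeq start sites (GRCm38.p6) were searched on both strands for the kappaB decamer, the letters that NF-kB binds, for the GC box GGGCGG, and for the AP-1 letters TGANTCA. A window was available for all 10 genes, although that of Myd88 lies at a start site 1393 bases from its annotated gene start. Those of the IRAK members that changed are printed 5′ to 3′ on the gene's own strand, so that the transcripts that fell can be set beside the transcript that rose. Capitals mark a kappaB decamer or a GC box.

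Irak1 (chrX:74023869-74024168, minus strand): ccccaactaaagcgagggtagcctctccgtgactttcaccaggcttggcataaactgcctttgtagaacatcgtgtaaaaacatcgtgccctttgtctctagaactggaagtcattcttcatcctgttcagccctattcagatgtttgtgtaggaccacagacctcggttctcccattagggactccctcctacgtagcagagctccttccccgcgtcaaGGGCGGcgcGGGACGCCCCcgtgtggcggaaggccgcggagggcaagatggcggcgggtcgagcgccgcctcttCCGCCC

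Irak2 (chr6:113638217-113638516, plus strand): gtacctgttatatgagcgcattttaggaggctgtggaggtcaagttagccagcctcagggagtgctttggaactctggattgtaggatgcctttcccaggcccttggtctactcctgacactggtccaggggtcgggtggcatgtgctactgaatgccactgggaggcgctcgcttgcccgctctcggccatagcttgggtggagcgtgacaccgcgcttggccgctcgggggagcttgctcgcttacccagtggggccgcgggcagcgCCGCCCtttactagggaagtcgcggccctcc

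Irak3 (chr10:120202081-120202380, minus strand): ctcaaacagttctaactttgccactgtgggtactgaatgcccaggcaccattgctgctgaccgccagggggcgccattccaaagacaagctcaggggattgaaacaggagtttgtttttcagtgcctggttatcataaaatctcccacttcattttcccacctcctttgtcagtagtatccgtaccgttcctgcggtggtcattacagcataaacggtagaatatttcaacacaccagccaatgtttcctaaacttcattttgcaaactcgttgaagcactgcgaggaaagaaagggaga

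The kappaB decamer occurred in 8.46% of all 32851 windows, in that of Irak1 but not in those of Irak2 and Irak3. In Irak1 it begins 21 bases before the start site and matches on both strands. The GC box occurred in 35.7% of all windows. Irak1 has 2 and Irak2 has 1, and the Irak3 window at the annotated gene start has 0, although a second Irak3 window, 533 bases further into the gene, has 3. No match says only that these letters are not in this window.

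Among the TRAF transcripts Traf1 and Traf2 fell, Traf3 rose and Traf6 did not pass. TRAF6 is the ligase of the MyD88 arm, TRAF3 serves the TRIF arm and restrains alternative NF-kB signalling, and TRAF1 and TRAF2 bind TNF receptors. Traf6 (ENSMUSG00000027164, chromosome 2, 101678429 to 101701669, plus strand) had 6.15, 6.16 and 6.30 FPKM in the WT libraries and 7.16, 6.49 and 7.13 FPKM in the KO libraries. The KO libraries were all higher, but the log2 change of 0.14 (95% interval 0.02 to 0.25) did not pass after adjustment (limma adjusted p = 0.0631). Without KO replicate 2, the lowest of that arm, it was 0.18 with an adjusted p of 0.0310.

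Traf3 (ENSMUSG00000021277, chromosome 12, 111166370 to 111267153, plus strand) was higher with KO neutrophils. It had 4.17, 4.03 and 4.63 FPKM in the WT libraries and 5.87, 6.21 and 5.20 FPKM in the KO libraries. The lowest KO library exceeded the highest WT library, and the log2 change was 0.36 (SE 0.08) with an adjusted p of 0.0102 in limma. The ratio of Traf3 to Traf6, the ligases of both arms, was 0.678, 0.654 and 0.735 with WT and 0.820, 0.957 and 0.730 with KO neutrophils. These ranges overlapped (exact permutation p = 0.2, also after adjustment over 5 ratios).

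Traf2 (ENSMUSG00000026942, chromosome 2, 25517982 to 25546940, minus strand) was lower with KO neutrophils. It had 6.89, 6.61 and 6.73 FPKM in the WT libraries and 4.53, 5.06 and 4.80 FPKM in the KO libraries. The arms were clearly apart, with a log2 change of -0.42 (SE 0.05) and an adjusted p of 0.000910 in limma.

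Traf1 (ENSMUSG00000026875, chromosome 2, 34941750 to 34961772, minus strand) had the largest log2 change of the 10. It had 7.75, 4.50 and 4.78 FPKM with WT neutrophils, where replicate 1 stood above the other 2, and 0.148, 0.191 and 0.108 FPKM with KO neutrophils. The KO values lay under the level of 3 fragments, which is 0.490 FPKM for the shortest coding transcript of Traf1 (386 bases), a floor that covers counting error only and that would be lower for longer transcripts. Read with the longest coding transcript, the highest KO value would be 12.5 fragments. Against this floor Traf1 was at least 11.6-fold lower with KO neutrophils, or 9.47-fold without WT replicate 1. The fitted log2 change was -2.51 (SE 0.18) with an adjusted p of 0.000101 in limma, and with a pseudocount of 0.1 in place of 1 it was -4.50. With WT neutrophils Traf1 held 21.1% to 31.0% of the summed FPKM of the 4 TRAF transcripts, and with KO neutrophils at most 2.78% even when set at its floor. The ratio of Traf1 to Traf2 was 1.13, 0.681 and 0.710 with WT neutrophils, and on average at most 0.102 with KO neutrophils with Traf1 at its floor (exact permutation p = 0.1 on the values as deposited, adjusted over 5 ratios 0.125).

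The windows of the TRAF transcript that fell most and of the one that rose are printed in the same way.

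Traf1 (chr2:34961723-34962022, minus strand): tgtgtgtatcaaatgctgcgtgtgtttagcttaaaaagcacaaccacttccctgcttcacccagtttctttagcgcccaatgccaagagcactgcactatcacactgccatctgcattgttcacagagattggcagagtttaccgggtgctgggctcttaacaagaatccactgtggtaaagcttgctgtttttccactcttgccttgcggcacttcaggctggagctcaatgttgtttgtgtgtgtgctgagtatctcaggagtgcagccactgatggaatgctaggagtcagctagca

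Traf3 (chr12:111166120-111166419, plus strand): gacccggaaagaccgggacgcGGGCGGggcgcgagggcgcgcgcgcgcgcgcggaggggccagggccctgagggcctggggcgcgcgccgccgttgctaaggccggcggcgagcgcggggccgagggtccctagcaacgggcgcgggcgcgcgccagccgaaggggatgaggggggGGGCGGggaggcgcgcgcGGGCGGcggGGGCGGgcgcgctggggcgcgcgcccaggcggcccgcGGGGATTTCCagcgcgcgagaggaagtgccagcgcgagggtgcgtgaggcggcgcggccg

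The Traf3 window holds 1 kappaB decamer, 10 bases before the start site, and 4 GC boxes, while the Traf1 window holds 0 of both. Traf3 had the highest GC content of the 10 windows nearest to the annotated gene starts (84.0%). Traf1, at 48.7%, had the second lowest after Irak3 (46.7%), whose second window had 67.3%. Irak1 and Traf3 were the 2 genes of the 10 with a kappaB decamer in this window. A match describes the letters and is no measurement of binding. The AP-1 letters, present in 7.81% of all windows, occurred in none of the 10. The interferon response letters (3.44% of all windows) and TATAAA (13.6%) occurred only in the Myd88 window, the former 40 bases before its start site.

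**Figure D3:**
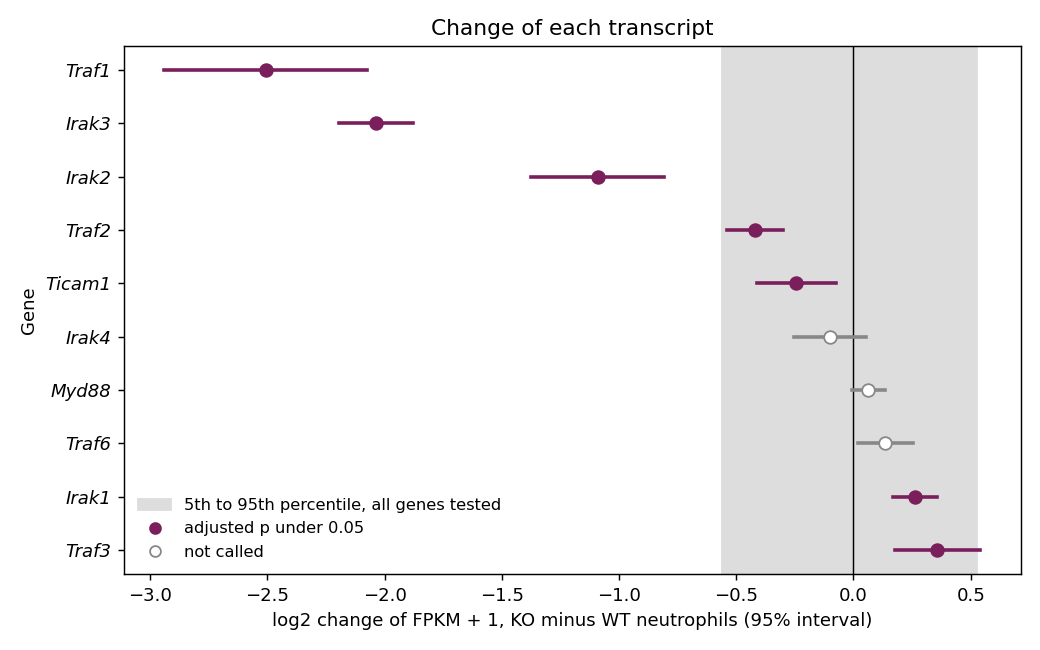
Change of each transcript on the log2(FPKM + 1) scale, KO minus WT neutrophils, with its 95% interval from limma; filled points have an adjusted p under 0.05, and the grey band spans the 5th to the 95th percentile of all genes tested (-0.56 to 0.53). Traf1, Irak3 and Irak2 lie left of the band.

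The order of the levels also differed between the arms. With WT neutrophils it ran Myd88, Irak2, Irak1, Irak3, Traf2, Traf6, Traf1, Ticam1, Traf3 and Irak4. With KO neutrophils it ran Myd88, Irak1, Irak2, Traf6, Traf3, Traf2, Ticam1, Irak4, Irak3 and Traf1. Neighbours whose libraries overlapped were Traf6 with Traf1 and Traf1 with Ticam1 in the WT arm, and Irak2 with Traf6 and Traf2 with Ticam1 in the KO arm. Beyond neighbours, Traf1 (4.50 to 7.75 FPKM) also overlapped Irak3, Traf2 and Traf3 in the WT arm. Irak2 (5.63 to 7.99 FPKM) also overlapped Traf3 in the KO arm. Summed over the 10, the level was 86.9, 84.6 and 85.0 FPKM in the WT libraries and 67.3, 66.0 and 67.5 FPKM in the KO libraries (exact permutation p = 0.1).

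Finally, 77 other genes of the same route were examined by their place in it. Of 62 that passed the filter of a mean of at least 1 FPKM, 23 were lower and 9 higher with an adjusted p under 0.05, with a median log2 change of -0.13. That is 51.6% called, against 43.3% of all genes tested (18.8% lower and 24.5% higher, median log2 change 0.02). This 43.3% is the background for each group below. The list was chosen with earlier results of these data known, so these shares describe it and are no test. Among the other TIR adaptors 2 of 4 tested were lower and 0 higher (50% called). Pik3ap1, whose product BCAP links Toll-like receptors to PI3 kinase, fell from 73.4, 71.6 and 73.2 FPKM to 45.8, 44.5 and 43.7 FPKM (log2 change -0.69, limma adjusted p = 6.20e-06). Tollip, an IRAK1-binding inhibitor, fell less (log2 change -0.21, limma adjusted p = 0.00136). The bridging adaptors of TLR4 did not pass, with log2 changes of 0.09 for Tirap and -0.10 for Ticam2 (limma adjusted p = 0.233 and 0.250).

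Of the other TRAF genes, Traf4 fell from 6.31, 6.43 and 5.93 FPKM to 4.44, 4.80 and 4.57 FPKM (log2 change -0.37, limma adjusted p = 0.00171). Traf7 did not pass (log2 change 0.11, adjusted p = 0.382), and Traf5 had a mean under 1 FPKM. Among partners of IRAK and TRAF proteins, 5 of 11 were lower and 2 higher (63.6% called). Birc3, the ubiquitin ligase cIAP2 that works with TRAF2, fell from 15.4, 13.8 and 15.1 FPKM to 5.24, 4.41 and 5.01 FPKM (log2 change -1.42, limma adjusted p = 1.79e-05). Tank, a TRAF-binding scaffold of TBK1, had a log2 change of -0.41 (limma adjusted p = 0.000260).

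In the TAK1 and IKK arm 3 of 12 tested genes were lower and 2 higher, all by less than 2-fold, and this share of 41.7% was near the background of 43.3%. The lower ones included Tab3, a TAK1-binding protein, and Chuk, the kinase IKK-alpha, both with a log2 change near -0.3 (-0.28 and -0.27). Map3k7, the transcript of TAK1 itself, did not pass (log2 change 0.32, limma adjusted p = 0.104). In the TBK1 arm 3 of 6 were lower and 1 higher (66.7% called). Ikbke, the inducible partner of TBK1, fell from 10.3, 10.2 and 10.04 FPKM to 4.48, 4.19 and 4.44 FPKM (log2 change -1.06, limma adjusted p = 7.38e-06). Tbk1 itself was close to the threshold (log2 change -0.16, limma adjusted p = 0.0445), and its call was lost in each of the 6 fits that left out 1 library (0.0522 to 0.114). Mavs, the adaptor of RNA sensors, rose by 0.31 on the log2 scale (limma adjusted p = 0.00244).

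Among ubiquitin editors and other brakes 4 of 14 were lower and 2 higher, a share of 42.9% that was near the background of 43.3%. Tnfaip3 (A20), which removes ubiquitin chains from TRAF6 and RIPK1, fell from 7.90, 7.59 and 7.87 FPKM to 1.67, 1.95 and 1.86 FPKM (log2 change -1.64, limma adjusted p = 4.63e-06). Its partner Tnip1 fell from 47.2, 45.5 and 49.0 FPKM to 18.6, 20.5 and 19.6 FPKM (log2 change -1.23, limma adjusted p = 5.83e-06). Among the receptors 5 of 13 were lower and 2 higher (53.85% called), and 9 more had a mean under 1 FPKM. The LPS co-receptor Cd14 and the TNF receptor Tnfrsf1b had the smallest p, with log2 changes of -1.79 and -2.10. The genes of this list whose 6 library values, centred on their mean, were nearest to those of Traf1 were Tnfrsf1b, Cd14 and Tnfaip3. Their Euclidean distances were 0.73, 1.04 and 1.18 on the log2 scale over 6 libraries, among 62 genes. With 2 arms this distance mostly follows the size of the fall. These genes had the largest falls of the 62 (log2 changes of -2.10, -1.79 and -1.64), so the nearness is no separate result.

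**Figure D4:**
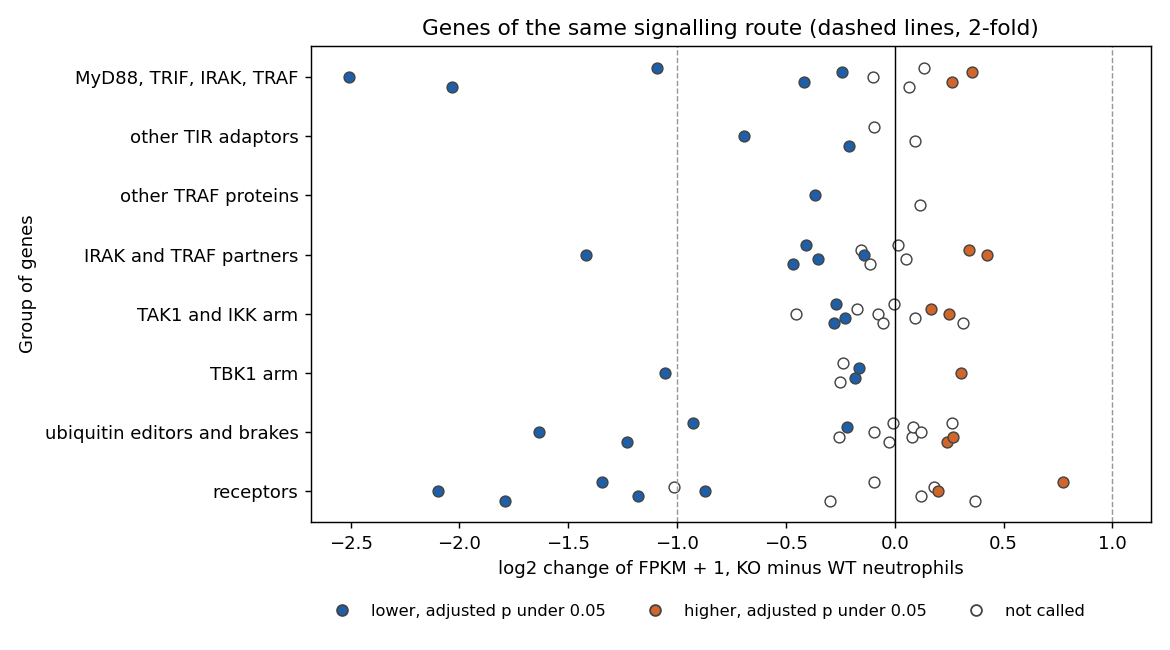
Change on the log2(FPKM + 1) scale, KO minus WT neutrophils, of the 10 transcripts and of 62 other tested genes of the route, with 1 point per gene, coloured by direction where the adjusted p was under 0.05. Beyond the dashed line at 2-fold lower lie Irak2, Irak3 and Traf1, then Birc3, Ikbke, Tnfaip3, Tnip1 and 5 receptors, of which Tlr4 (log2 change -1.01) was not called, and no gene lies beyond 2-fold higher.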

How the data were processed

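The authors deposited 1 table of FPKM values with 1 column for each of the 6 libraries, and all 6 columns were used. The submitters' processing notes name fastp 0.17.1, HISAT2 2.1.0 and DESeq2 1.18.1 (the methods give another DESeq2 version and library kit than the labels), while the quantification program, genome build and annotation are not given in the sources used here. No count table was used here. Low values were whole multiples of 1 fragment (within 0.05) for 26.1% to 27.6% against 10% by chance, so whole reads were not recovered and no count test was made.

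Symbols and positions came from GENCODE M21 (GRCm38), which may differ from the annotation of the authors and matched 55154 of 55335 identifiers (99.67%). Sting1 was found through a RefSeq synonym. Promoter windows came from RefSeq. Transcripts with a mean of at least 1 FPKM entered limma 3.58.1 (R 4.3.3), fitted with lmFit and eBayes with a variance trend on log2(FPKM + 1), without covariates. On this scale the change of low genes is understated. The fit was tested on simulated data. Exact two-sided permutation tests were added for single values. All members were named, with the 2 genes of smallest p in each pathway sublist, 9 genes set by hand and the 3 genes nearest to Traf1. Members and lists were chosen with earlier results of these data known. The summed level of the microglia markers is not reported here.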

Additional observations from a re-analysis of the deposited data

How the results depend on the processing

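Each fit was repeated with another pseudocount (0.1), another filter (none, or a mean of at least 5 FPKM), other scalings (TPM scale, quantile normalization, median centring), without the variance trend, with array weights, with a replicate block and without each library. Of 415 comparisons of a single gene's change with an alternative, 401 kept direction and side of the threshold, 13 were weaker (Ticam1 and Tbk1), 1 was stronger (Traf6) and 0 reversed. The ratios and the summed level have an exact p of at least 0.1 by design, so their p-values say nothing about stability. The number of the 10 transcripts called was 5 to 7, with the 5 among only 7 tested at a mean of at least 5 FPKM (Irak3, Irak4 and Traf1 did not enter), and 6 to 7 without 1 library. Among the other pathway genes 30 to 31 were called without 1 library, against 32 with all. No pairing of libraries by replicate number was visible. The correlations of deviations between same-numbered libraries were -0.184, 0.0318 and -0.0487, and not every library correlated best with its own number. With 3 libraries per arm this check cannot show that pairing was absent. With the replicate block 7 of the 10 transcripts, 31 other pathway genes and 4212 of all genes were called, against 4930 without it. Changes of scale moved the median of all genes by less than 0.1 (log2). Depth may limit Traf1 in the KO arm, depending on the transcript length behind its FPKM, which is not known here. The edgeR and DESeq2 alternatives could not be run without counts.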

Other observations

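Below the filter on low values, 2 of 11 listed genes of the route (18.2%) passed when the filter was left out, against 4.36% of all 13800 genes under the filter and 17.9% of all 25195 genes in that fit. Traf5, a TRAF protein of TNF receptors, had 0.615, 0.527 and 0.472 FPKM in the WT libraries and 1.02, 0.955 and 0.879 FPKM in the KO libraries (limma adjusted p = 0.0201). Tnip3, an A20-binding protein, had 0.537, 0.512 and 0.566 FPKM in the WT libraries and 0.179, 0.190 and 0.188 FPKM in the KO libraries (limma adjusted p = 0.00127).

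Of the 72 members and pathway genes tested, 6 varied by more than 1.5-fold between libraries of 1 arm (chosen after their values were seen). Tlr4 had 11.8, 3.18 and 11.9 FPKM with WT neutrophils, so that WT replicate 2 lay within the KO values of 3.14, 3.09 and 3.99 FPKM. Tlr7 had 30.4, 12.8 and 12.7 FPKM in the WT libraries and 42.3, 14.8 and 17.7 FPKM in the KO libraries. Azi2 stood at 7.01 FPKM in WT replicate 2 and at 3.77 and 3.93 FPKM in the other WT libraries. Ikbkg had 3.92 FPKM in WT replicate 3 against 6.81 and 6.39 FPKM in the others. The other 2 were Sting1 and Traf1. For none of Tlr4, Tlr7, Azi2, Ikbkg and Sting1 did the change between arms pass (limma adjusted p = 0.110, 0.568, 0.372, 0.0837 and 0.228).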
